A study of Mus musculus with 18 samples.

Results

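Untreated colon of *Cldn2*KO mice was compared with untreated colon of WT mice, to describe the transcriptome that the knockout carries before any challenge. The comparison used 6 of the 18 RNA-seq libraries of the series, 3 of each genotype, chosen by their genotype and control treatment labels. The other 12 came from colon in recovery after dextran sulfate sodium (DSS) colitis, or after the carcinogen azoxymethane was given together with DSS (AOM/DSS). Both genotypes had a C57BL/6 background, and the methods state that *Cldn2*KO mice had littermate WT controls of matching age and sex. The labels gave neither the ages nor the design of the knockout allele, and did not say whether each library came from a different animal, so p-values measure only the spread between these libraries. A general treatment note in the labels names AOM and DSS for every sample, and the control libraries were taken as untreated from their own treatment label.

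Claudin-2 is a tight junction protein that forms a channel for small cations and water between neighbouring epithelial cells, and it is found mainly in the crypts. Colonic epithelium also answers to signals from immune cells. Under interferon-γ it switches on MHC class I and class II genes and a family of immunity GTPases, while IgA from plasma cells of the lamina propria is carried across it into the lumen, and its dual oxidase releases hydrogen peroxide towards the microbiota.

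The 6 libraries held 17.6 to 25.4 M counted reads (median 18.2), and 21596 to 22730 genes had at least 1 read. Levels are given below as counts per M reads (CPM) after scaling, always in the order of replicates 1, 2 and 3, and fold changes are *Cldn2*KO against WT. Genes that mark colonic epithelium were at a summed level of 24595 to 72311 CPM in all 6. WT replicate 2 stood apart. Its log2 CPM correlated with the other control libraries at 0.900 to 0.921, against at least 0.957 among the other 5, and it lay alone at one end of the first principal component, which held 57.0% of the variance. *Hoxb13* and *Hoxd13*, homeobox genes that mark the distal colon, were at 0.327 and 0.262 CPM in WT replicate 2, against at least 444 and 208 CPM in the 5 others. Results that rest on this library are therefore given with and without it. Follicular B cell genes split the libraries across genotypes. *Ms4a1*, which encodes CD20, stood at 2.79, 24.1 and 21.2 CPM in WT and at 1.23, 1.17 and 28.4 CPM in *Cldn2*KO. Smooth muscle genes were higher in every *Cldn2*KO library, with a summed level of 5893 to 8456 CPM in WT and 11407 to 14698 CPM in *Cldn2*KO, although edgeR called 0 of 16 (3 at an unadjusted p under 0.05, 0 by DESeq2 and 5 by limma-voom). *Xist*, which is expressed in females, was at most 1.1 CPM in all 6.

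*Cldn2* (ENSMUSG00000047230, GRCm38 chrX:139800828-139811386, plus strand) was lost from the knockout libraries. It stood at 131, 44.5 and 127 CPM in WT and at 0.197, 0.0555 and 0.161 CPM in *Cldn2*KO. Every WT library was far above every *Cldn2*KO library, with WT replicate 2 the lowest of the WT. The log2 fold change was -9.43 ± 0.59 (standard error of the fit, used for all log2 fold changes below; edgeR adjusted p 9.38e-07), and each of 16 alternative analyses called the gene. Per kilobase of transcript, *Cldn2* ranked 6 among 12 claudins in WT colon at 30.3 ± 14.6 RPKM (SD, n = 3; RPKM are reads per kilobase and M reads), behind *Cldn7*, *Cldn3*, *Cldn8*, *Cldn15* and *Cldn23*. This order of the means rested on WT replicate 2, where *Cldn2* was at 13.4 RPKM and *Cldn15* at 97.6 RPKM. In WT replicates 1 and 3 *Cldn2* was at 39.4 and 38.1 RPKM, above *Cldn15* at 16.4 and 19.6 RPKM and near *Cldn23* at 34.4 and 39.8 RPKM. Its distance to *Cldn4*, the next in order at 29.0 ± 2.85 RPKM, was within the spread of the WT libraries.

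No other claudin was called by edgeR. Of 22 tight junction genes tested, edgeR called *Cldn2* and *Tjp3* lower and none higher, and the list median log2 fold change was -0.06 (-0.15 without WT replicate 2). DESeq2 called 2 of the 22 and limma-voom 4, and 4 had an unadjusted p under 0.05. *Tjp3* encodes ZO-3, a scaffold under the junction. It stood at 264, 281 and 249 CPM in WT and at 168, 184 and 189 CPM in *Cldn2*KO, without overlap (log2 fold change -0.55 ± 0.12, edgeR adjusted p 0.0362), and it was not called without WT replicate 1 or 2, or without *Cldn2*KO replicate 1 or 2. *Cldn7*, the claudin with the highest level per kilobase, was at 749, 905 and 727 CPM in WT and at 514, 532 and 589.8 CPM in *Cldn2*KO (log2 fold change -0.54 ± 0.18, edgeR adjusted p 0.186). *Cldn15*, which like *Cldn2* forms a cation channel, was high in WT replicate 2 alone, at 34.8, 207 and 41.6 CPM in WT and 35.6, 32.2 and 32.4 CPM in *Cldn2*KO. *Ocln* (log2 fold change 0.24 ± 0.22) and *Tjp1* (0.06 ± 0.18), which encode occludin and ZO-1, were not called. Among 16 tested genes that start within 2000000 bases of *Cldn2* on the X chromosome, *Rnf128*, an E3 ubiquitin ligase, fell beside *Cldn2* itself (log2 fold change -0.85 ± 0.20, edgeR adjusted p 0.0479). *Rnf128* lost its call when any single library was left out.

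Most genes that edgeR called were lower in *Cldn2*KO. Of 16937 genes tested, 199 were called at an adjusted p under 0.05 (1.17%), of which 21 rose (0.124%) and 178 fell (1.05%) in *Cldn2*KO colon. Over all tested genes the median log2 fold change was -0.01, and 50.6% were fitted lower. The falls were large. A log2 fold change under -2 was reached by 115 of the called genes, and one over 2 by 6. The 2 groups did not overlap in CPM for 197 of the 199, a separation also seen in 10.7% of all tested genes towards lower and 11.6% towards higher levels in *Cldn2*KO. The number of calls depended on single libraries. It was 25 without *Cldn2*KO replicate 1 and 48 without *Cldn2*KO replicate 2, all of them among the 199, and 307 without WT replicate 1. Without WT replicate 2 it was 198, of which 141 were shared with the 199. Calls were made in every analysis that left out 1 library for 24 genes. Besides *Cldn2* these included *Ddah1*, *Tnfsf10*, *Btnl2*, *Ifi47*, *Apol10a*, *Nfkbiz*, *H2-DMb1*, *H2-DMa*, *H2-Eb1*, *B2m*, *Tap1*, *Parp14*, *Irgm1*, *Irgm2*, *Jchain* and *Per2*. Every other called gene lost its call in at least 1 of these 6 analyses.

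**Figure D1:**
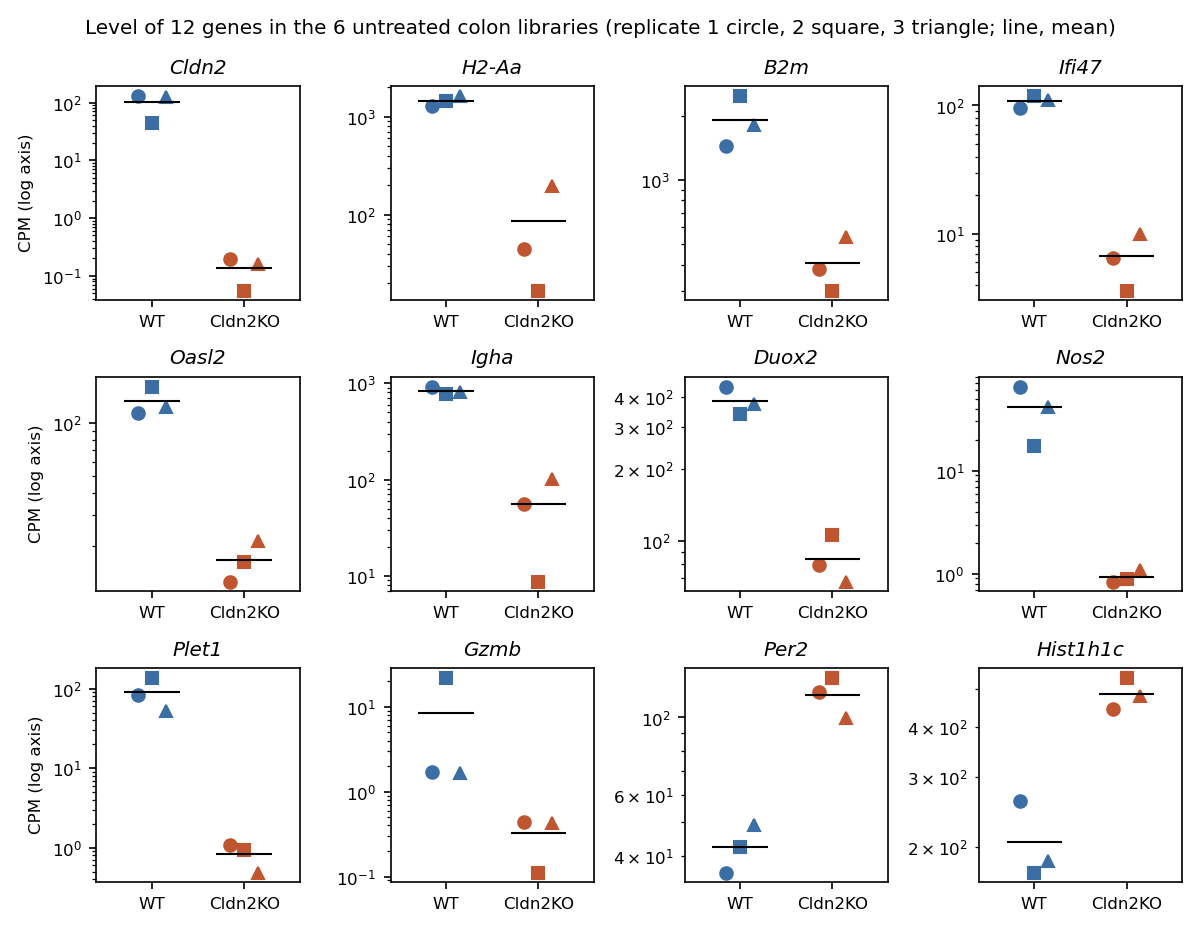
CPM on log axes for 12 genes in the 6 untreated libraries, with WT in blue and *Cldn2*KO in red, replicates 1 to 3 as circle, square and triangle, and the group mean as a line. The groups did not overlap for any of the 12, *Cldn2*KO was lower for 10 and higher for *Per2* and *Hist1h1c*, and the mean of *Gzmb* was set by WT replicate 2.

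The plot of 12 genes in single libraries shows the size of these falls against the replicate spread. For *H2-Aa* and *Igha* the *Cldn2*KO libraries differed widely among themselves, with replicate 2 the lowest and replicate 3 the highest.

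Of the 199 called genes, 78 were members of 1 or more of 43 gene lists, and the others were in none. Of 136 tested genes in 6 lists of interferon targets, interferon signalling and antigen presentation, 50 fell and 0 rose. Over all tested genes 1.05% fell, 0.124% rose and 50.6% were fitted lower, shares that stand beside every list count below. These lists were drawn up with earlier results of these data known, and their counts describe the genes rather than test the programmes.

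**Figure D2:**
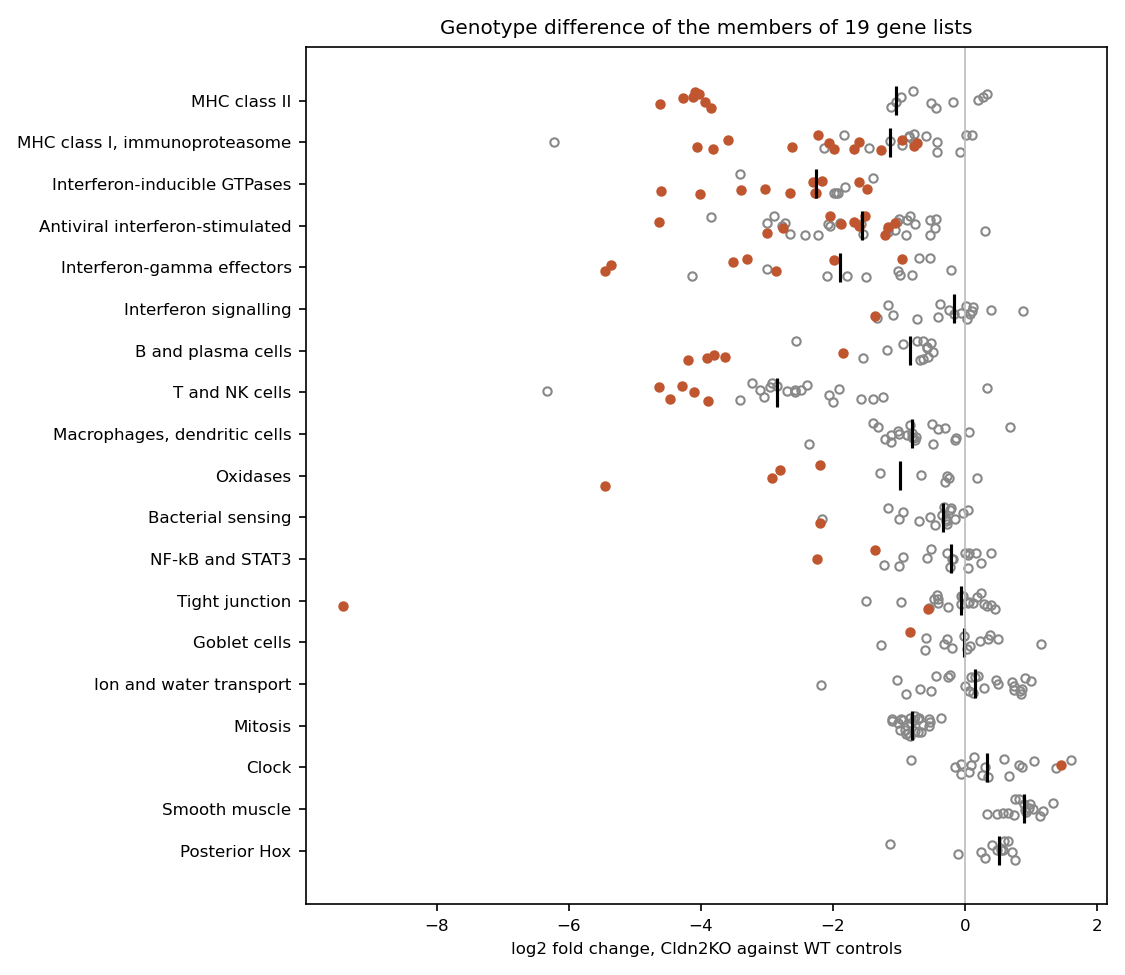
Log2 fold change (*Cldn2*KO against WT controls) of each tested member of 19 gene lists, 1 line per list. Filled points were called, open points were not, and the bar is the list median. Members of the antigen presentation and interferon lists lay left of 0 nearly throughout, whereas the members of interferon signalling, tight junction, goblet cell and ion transport lists lay around it.

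Of 17 tested genes of MHC class II presentation, 7 fell and 0 rose, with a list median of -1.04 and 14 fitted lower. The 7 were the antigen-presenting chains *H2-Aa*, *H2-Ab1* and *H2-Eb1*, the peptide exchange factors *H2-DMa* and *H2-DMb1*, the invariant chain *Cd74*, and *Ciita*, the transactivator on which expression of the class II genes depends. Their log2 fold changes lay between -4.63 and -3.85. *H2-Aa* (ENSMUSG00000036594, chr17:34282744-34287827, minus strand) stood at 1290.3, 1435 and 1629 CPM in WT and at 44.5, 16.8 and 194 CPM in *Cldn2*KO (log2 fold change -4.09 ± 0.67, edgeR adjusted p 0.00713). The 3 WT libraries lay close together, and the 3 *Cldn2*KO libraries differed widely while all stayed far below them. *Cd74* fell 24.7-fold, from 1309 ± 147 CPM (SD, n = 3) to 53 ± 56.2 CPM (edgeR adjusted p 0.00682).

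*Ciita* moved with its targets. It stood at 30.5, 32.2 and 29.2 CPM in WT and at 0.887, 0.333 and 4.41 CPM in *Cldn2*KO (log2 fold change -4.03 ± 0.62, edgeR adjusted p 0.00485). As for *H2-Aa*, *Cldn2*KO replicate 2 was the lowest library and replicate 3 the highest. The other subunits of the class II promoter complex were not called. *Rfx5* had a log2 fold change of -0.79, *Rfxap* of 0.28 and *Rfxank* of 0.33. Cathepsin S (*Ctss*, 0.20), *Ifi30* (-0.18) and *Lgmn* (-0.43), which process antigen in the endosome, were not called by edgeR either. The edgeR calls thus fell on *Ciita* and on genes of the class II molecule and its loading. Of the 17 genes of the list DESeq2 called 7 and limma-voom 9, and 8 had an unadjusted p under 0.05. Without WT replicate 2 again 7 genes of the list were called, and without *Cldn2*KO replicate 1 3 were, with a list median of -0.64. In whole tissue, fewer cells that carry class II molecules and less class II RNA per cell cannot be told apart. Macrophage and dendritic cell markers, which also mark class II-bearing cells, had 0 of 23 called by edgeR (8 at an unadjusted p under 0.05, 2 by DESeq2 and 17 by limma-voom), and their summed level was 386, 333 and 467 CPM in WT and 205, 173 and 485 CPM in *Cldn2*KO, highest in *Cldn2*KO replicate 3. *Ms4a1*, the B cell marker given above, was highest in the same library. The part of these cells in the class II difference was not tested.

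Of 29 tested genes of MHC class I presentation, 13 fell and 0 rose, and the list median was -1.13. *Nlrc5*, the class I counterpart of *Ciita*, stood at 49, 35.9 and 41.4 CPM in WT and at 1.13, 1.44 and 5 CPM in *Cldn2*KO (log2 fold change -4.06 ± 0.64, edgeR adjusted p 0.00582). *B2m* (ENSMUSG00000060802, chr2:122147686-122153083, plus strand) encodes the light chain of every class I molecule. It stood at 1448, 2482 and 1803 CPM in WT and at 383, 301 and 539.7 CPM in *Cldn2*KO, a 4.68-fold difference without overlap (log2 fold change -2.23 ± 0.29, edgeR adjusted p 0.00197). Of the classical heavy chains, *H2-D1* fell 2.42-fold (log2 fold change -1.28 ± 0.19, edgeR adjusted p 0.0041), while *H2-K1* was not called at 1806, 2241 and 2256 CPM in WT and 996, 1142 and 1346 CPM in *Cldn2*KO (edgeR adjusted p 0.0797). The non-classical *H2-Q6* and *H2-Q7* had log2 fold changes of -3.58 and -3.81. Genes of the H2-Q and H2-T groups resemble each other closely and their single values are uncertain.

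The machinery that supplies class I molecules with peptide moved with them. *Tap1*, a subunit of the transporter that brings peptides into the endoplasmic reticulum, fell from 128, 75.8 and 118 CPM to 15.2, 11.8 and 25.5 CPM (log2 fold change -2.62 ± 0.37, edgeR adjusted p 0.0032), a call that every alternative kept. The immunoproteasome subunits *Psmb9* (-2.06) and *Psmb8* (-1.99) and the proteasome activator *Psme1* (-0.95) fell as well. *Tap1* and *Psmb9* overlap on opposite strands and strandedness of the counting was not stated, so reads of either could have been given to the other. The general folding factors of the endoplasmic reticulum *Pdia3* (0.11), *Calr* (-0.08) and *Canx* (0.02) were not called. Of the 13 calls, 2 remained without *Cldn2*KO replicate 1 and 4 without *Cldn2*KO replicate 2, and again 13 genes of the list were called without WT replicate 2.

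The immunity GTPases, which act on vacuoles that hold intracellular pathogens and are classic targets of interferon-γ, were the list with the highest share of calls. Of 17 tested, 11 fell, 0 rose and all 17 were fitted lower, with a list median of -2.26. Their summed level was 986, 658 and 969.9 CPM in WT and 161, 158 and 279 CPM in *Cldn2*KO. *Ifi47* (ENSMUSG00000078920, chr11:49076587-49096974, plus strand) stood at 94.9, 119 and 109.5 CPM in WT and at 6.51, 3.61 and 9.9 CPM in *Cldn2*KO (log2 fold change -4.01 ± 0.46, edgeR adjusted p 0.000755). The WT libraries were alike and all *Cldn2*KO libraries lay far below the lowest of them. *Irgm1* (-1.60), *Irgm2* (-2.26) and *Igtp* (-2.28), the regulatory members of the family, fell too, as did *Iigp1* (-3.39), *Tgtp1* (-4.60), *Gvin1* (-3.02) and the guanylate-binding proteins *Gbp3*, *Gbp6*, *Gbp7* and *Gbp8* (-2.65 to -1.48). *Tgtp1* overlaps *Olfr56* and has the near-identical copy *Tgtp2*, and the Gbp genes resemble each other, so single values of these are uncertain. Without *Cldn2*KO replicate 1, and likewise without *Cldn2*KO replicate 2, 3 of the list were called, and without WT replicate 3 7 were. Without WT replicate 2 again 11 of the list were called, but *Gvin1* was not among them (edgeR adjusted p 0.0742).

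Antiviral interferon-stimulated genes were lower almost without exception, with a smaller share called than among the GTPases. Of 38 tested, 11 fell and 0 rose, and 37 were fitted lower, with a list median of -1.56. For 33 of the 38 the groups did not overlap in the direction of lower *Cldn2*KO (10.7% of all tested genes). *Oas3*, a sensor of double-stranded RNA, stood at 36, 104 and 43.3 CPM in WT and at 1.23, 3.88 and 2.26 CPM in *Cldn2*KO (log2 fold change -4.64 ± 0.92, edgeR adjusted p 0.0257, and -4.04 without WT replicate 2). *Oasl2* fell from 115, 161 and 124 CPM to 12.5, 16.3 and 21.4 CPM, and *Ddx60* (-2.76), *Rsad2* (-2.05), *Cmpk2* (-1.87) and *Herc6* (-1.68) also fell. The interferon-inducible partners *Parp14* (-1.52) and *Dtx3l* (-1.60), which modify proteins by ADP-ribosylation and ubiquitination, were the called members that varied least. *Parp14* stood at 194, 169 and 178 CPM in WT and at 62.8, 67.8 and 58.2 CPM in *Cldn2*KO, without overlap (edgeR adjusted p 0.00197). Of the 38, DESeq2 called 25 and limma-voom 33, and 33 had an unadjusted p under 0.05. Several of the best known antiviral genes varied more and were not called by edgeR. *Isg15*, a ubiquitin-like modifier, stood at 32.6, 55.6 and 44.9 CPM in WT and at 4.29, 9.88 and 7.05 CPM in *Cldn2*KO (log2 fold change -2.65 ± 0.80, edgeR adjusted p 0.132). Of the 11 calls, 2 remained without *Cldn2*KO replicate 1 and 5 without *Cldn2*KO replicate 2, and 7 genes of the list were called without *Cldn2*KO replicate 3.

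Of 18 other interferon-γ targets, 7 fell, 0 rose and all were fitted lower, with a list median of -1.89. *Nos2* (ENSMUSG00000020826, chr11:78920787-78960254, plus strand), the inducible nitric oxide synthase, stood at 65.1, 17.2 and 41.1 CPM in WT and at 0.838, 0.888 and 1.08 CPM in *Cldn2*KO (log2 fold change -5.45 ± 1.12, edgeR adjusted p 0.0297). The *Cldn2*KO libraries lay close together, and the WT libraries varied widely, with replicate 2 the lowest, without overlap. *Tnfsf10*, which encodes the death ligand TRAIL, fell from 68.5, 80.2 and 59.2 CPM to 10.2, 9.49 and 8.88 CPM (log2 fold change -2.86 ± 0.30, edgeR adjusted p 0.000406), and no alternative ended its call. *Ido1*, which breaks down tryptophan, fell by 3.52 on the log2 scale, and *Cd274*, the checkpoint ligand PD-L1, fell by 1.99. *Irf1*, an interferon-induced transcription factor, stood at 392, 362 and 357 CPM in WT and at 173, 189 and 209 CPM in *Cldn2*KO (log2 fold change -0.96 ± 0.18, edgeR adjusted p 0.0146). The chemokine *Ccl5* was called (-5.36) but stood at 2.01, 28.2 and 3.13 CPM in WT, and its log2 fold change without replicate 2 was -3.27. The list held 1 call, *Tnfsf10*, without *Cldn2*KO replicate 1 and 1 without *Cldn2*KO replicate 2, and 4 without WT replicate 3.

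Of 17 genes of interferon signalling tested, edgeR called *Stat2* alone (log2 fold change -1.36 ± 0.28, edgeR adjusted p 0.0257), whereas 5 had an unadjusted p under 0.05, DESeq2 called 4 and limma-voom 9. The list median was -0.17, and -0.10 without WT replicate 2. *Stat2* was not called without *Cldn2*KO replicate 1 or 2. *Ifngr1* (0.07 ± 0.18), *Ifnar1* (-0.06 ± 0.22) and *Jak1* (0.12 ± 0.12) were not called. Interferon-γ itself was near the detection limit. *Ifng* had 12 reads summed over the 3 WT libraries and 0 over the 3 *Cldn2*KO libraries. Against a floor of 3 reads these pooled counts give a ratio of 3.86. That ratio leaves out the counting error of the WT reads and the spread between libraries, so it is not a bound for the genotype. *Ifng* did not pass the filter on low counts.

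Promoter sequence was read for the called genes to show where the elements for these pathways lie. Windows of 300 bases (250 before and 50 after the RefSeq start site, GRCm38.p6) were searched on both strands for 3 motifs. These were the core of the interferon-stimulated response element (GAAANNGAAA), the gamma-activated site (TTCNNNGAA) and the Y box of class II promoters (CTGATTGG), and matches of different motifs were counted separately even where they overlapped. Among genes that fell, antigen receptor segments left out, 105 of 147 had a window, and 20 of them held the response element core (19.05%), against 3.90% of the 12213 tested genes with a window and 3.44% of all 32851 windows. The gamma-activated site was in 14.3% of the genes that fell and 8.43% of the tested genes, and the Y box in 9.52% and 6.19%. Of 15 windows of genes that rose, 0 held the response element core. Among the 31 called members of the interferon and class I lists that had a window, 15 held it (48.4%). The stretches below are printed 5′ to 3′ on the gene's strand, with the matching bases in capitals and their sequence from RefSeq. They show the response element core in *B2m* (chr2:122147518-122147587), *Irgm1* (chr11:48871421-48871480, minus strand) and *Apol10a* (chr15:77476966-77477035), where it lies 139, 30 and 51 bases before the start site. In *Irgm1* a pair of matches overlap, and in *Apol10a* the match is on the other strand and appears as its reverse complement.
B2m: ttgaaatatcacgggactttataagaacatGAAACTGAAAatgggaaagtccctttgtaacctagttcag
Irgm1: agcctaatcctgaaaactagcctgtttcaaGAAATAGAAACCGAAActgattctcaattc
Apol10a: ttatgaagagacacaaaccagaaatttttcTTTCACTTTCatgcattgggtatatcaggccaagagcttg

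The promoter of *Irf1* (chr11:53769894-53769962) is printed for its gamma-activated site, and those of *H2-Aa* (chr17:34287837-34287904, minus strand) and *H2-Eb1* (chr17:34305775-34305842) for the Y box that class II genes share, which lies 51 and 62 bases before their start sites.
Irf1: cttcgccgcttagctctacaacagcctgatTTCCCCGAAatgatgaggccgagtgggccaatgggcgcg
H2-Aa: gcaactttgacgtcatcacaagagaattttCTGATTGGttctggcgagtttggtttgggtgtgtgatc
H2-Eb1: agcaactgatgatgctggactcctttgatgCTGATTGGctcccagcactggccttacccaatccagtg

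A match describes the letters of the window and was not tested as a binding site. Of the 7 called class II genes 4 had a window, 2 of these held the Y box and 0 held either interferon element in these 300 bases.

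Genes of IgA plasma cells were also lower in *Cldn2*KO. Of 18 B and plasma cell genes tested, 5 fell and 0 rose, with a list median of -0.83, which was -0.49 without WT replicate 2 and -0.29 without *Cldn2*KO replicate 1. *Igha* (ENSMUSG00000095079, chr12:113254830-113260236, minus strand), the constant region of IgA, stood at 918, 769 and 802 CPM in WT and at 55.8, 8.71 and 101 CPM in *Cldn2*KO (log2 fold change -3.91 ± 0.61, edgeR adjusted p 0.00582). *Jchain*, which joins IgA into dimers, fell from 719, 689.5 and 824 CPM to 63.3, 11.4 and 84.8 CPM (log2 fold change -3.81 ± 0.56, edgeR adjusted p 0.0038). *Igkc* (-3.64), the plasma cell survival receptor *Tnfrsf17* (-4.20) and the secretory pathway gene *Derl3* (-1.85) also fell. *Cldn2*KO replicate 2 was the lowest library for *Igha* and *Jchain* and replicate 3 the highest, the same order as for *H2-Aa*. Follicular B cell genes did not follow them. *Cd79b* stood at 2.44, 15.9 and 17.9 CPM in WT and at 0.246, 0.277 and 25.4 CPM in *Cldn2*KO, and *Cr2* and *Ms4a1* were high in the same 3 libraries.

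Variable segments of antibodies made up a large part of the call list. Of 109 antigen receptor segments tested, all were fitted lower and 31 were called, 9 of the heavy chain and 22 of the kappa chain, with log2 fold changes from -8.71 to -3.42 (median -4.73). The 109 were picked by name and took in *Ighd*, the IgD constant gene. The antibody genes among the 109, called or not, had a summed level of 358, 341 and 372 CPM in WT and 24.1, 4.44 and 83.1 CPM in *Cldn2*KO, so that the 3 WT libraries were alike. Without *Cldn2*KO replicate 1, 1 segment was called, without *Cldn2*KO replicate 2 5 were, and in the other analyses that left out 1 library 24 to 42 were. Segments resemble each other, and reads may have been counted for a related one. Beside IgA, the IgG2c constant gene *Ighg2c* fell from 5.74, 11.5 and 15.2 CPM to 0.148, 0 and 0.269 CPM (log2 fold change -6.21 ± 1.02, edgeR adjusted p 0.00697). The plasma cell calls depended on *Cldn2*KO replicate 1, without which 1 of the 5, *Jchain*, was called. Without *Cldn2*KO replicate 2, 3 of the list were called, and without *Cldn2*KO replicate 3 8 were.

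**Figure D3:**
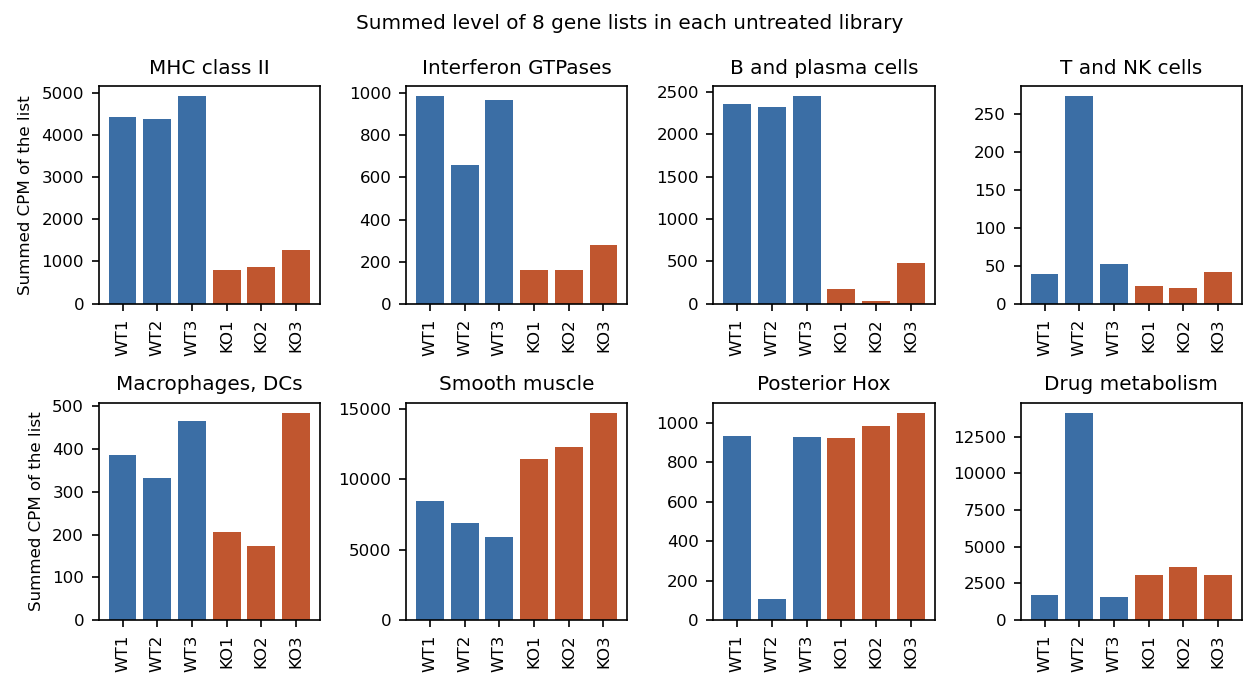
Summed CPM of 8 gene lists in each of the 6 untreated libraries, with WT in blue and *Cldn2*KO in red. MHC class II, interferon GTPases and B and plasma cells were high in all 3 WT libraries, T and NK cells were high in WT replicate 2 alone (274 CPM), posterior Hox genes were low in it, and drug metabolism genes were highest there (14110.0 CPM).

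The bars of summed levels show which lists were high in all 3 WT libraries and which in WT replicate 2 alone. Of 25 T cell and cytotoxic lymphocyte markers tested, edgeR called 5 lower and 0 higher, with a list median of -2.85 and 24 fitted lower both with and without WT replicate 2. DESeq2 called 15, limma-voom called 22 and 24 had an unadjusted p under 0.05. Their summed level was 39.7, 274 and 52.8 CPM in WT and 22.6, 20.2 and 41.9 CPM in *Cldn2*KO. *Gzmb*, the cytotoxic protease granzyme B, stood at 1.69, 22.1 and 1.65 CPM in WT and at 0.444, 0.111 and 0.431 CPM in *Cldn2*KO. *Gzmb*, *Cd3e*, *Cd8a* and *Nkg7* were not called without WT replicate 2, where the list median was -1.54 and *Cd7*, a surface protein of T and NK cells, was the only call. The list held 10 edgeR calls without WT replicate 1, and 0 without *Cldn2*KO replicate 1 or without *Cldn2*KO replicate 2. Without WT replicate 2 *Cd7* had a log2 fold change of -2.92, from 2.04 and 2.19 CPM in WT. Outside the list, the costimulatory receptor *Cd28* fell at similar levels in the WT libraries, from 2.01, 2.62 and 1.75 CPM to 0.296, 0.0555 and 0.323 CPM (log2 fold change -3.19 ± 0.56, edgeR adjusted p 0.0113). *Cd28* was named after its values were seen, for its even WT level.

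Epithelial genes that produce reactive oxygen and nitrogen species fell as a group of 4 among 10 tested, with 0 rising and a list median of -0.98. *Duox2* (ENSMUSG00000068452, chr2:122279247-122298165, minus strand), the dual oxidase, stood at 442, 339 and 374 CPM in WT and at 78.8, 106 and 67.4 CPM in *Cldn2*KO (log2 fold change -2.20 ± 0.43, edgeR adjusted p 0.0223). Its maturation factor *Duoxa2* stood at 97.2, 83.3 and 90.1 CPM in WT and at 8.77, 14.4 and 12.6 CPM in *Cldn2*KO (log2 fold change -2.92 ± 0.60, edgeR adjusted p 0.0292). For both genes the replicates of each genotype were close together, and the order of the *Cldn2*KO libraries differed from that of class II and IgA, with replicate 2 the highest. *Duoxa1*, which overlaps *Duoxa2* on the other strand and is uncertain, and *Nos2* completed the group. *Nox1*, the other main oxidase of colonocytes, was at 107, 11 and 106 CPM in WT and at 32.1, 35.9 and 24.1 CPM in *Cldn2*KO and was not called (edgeR adjusted p 0.498). Without any 1 of the *Cldn2*KO libraries none of the 4 was called by edgeR, whereas with all libraries the 4 were called by DESeq2 and were the members with an unadjusted p under 0.05.

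Of 18 bacterial sensing genes 17 were fitted lower and edgeR called 1, *Nod2*, a receptor for bacterial cell wall fragments. DESeq2 called 4, limma-voom 8, and 7 had an unadjusted p under 0.05, while edgeR called 0 without *Cldn2*KO replicate 1 or without *Cldn2*KO replicate 2. It stood at 3.66, 3.01 and 3.29 CPM in WT and at 0.838, 0.61 and 0.7 CPM in *Cldn2*KO (log2 fold change -2.20 ± 0.45, edgeR adjusted p 0.0263). Of 18 NF-κB and STAT3 genes, 2 fell. *Socs3*, the STAT3 feedback inhibitor, fell from 29.6, 34.4 and 44.7 CPM to 7.49, 8.21 and 7.37 CPM (edgeR adjusted p 0.023). *Nfkbiz*, an NF-κB cofactor, fell from 146, 115 and 156 CPM to 48.8, 60.7 and 52.7 CPM (log2 fold change -1.36 ± 0.16, edgeR adjusted p 0.000914). Outside these lists *Zc3h12a*, the RNase regnase-1 that degrades inflammatory mRNAs, stood at 81.7, 53.6 and 68.9 CPM in WT and at 11.6, 14.4 and 16.8 CPM in *Cldn2*KO (log2 fold change -2.25 ± 0.33, edgeR adjusted p 0.00347). Groups were apart for each of these 4 genes. The necroptosis effector *Mlkl* fell by 1.29 on the log2 scale and was the edgeR call among 16 gasdermin and necroptosis genes, of which DESeq2 called 3 and limma-voom 4, and 4 had an unadjusted p under 0.05. *Mlkl* was not called without *Cldn2*KO replicate 1 or 2. Of the apoptosis genes 0 of 18 apoptosis genes were called by edgeR (7 at an unadjusted p under 0.05, 1 by DESeq2 and 8 by limma-voom). Of 15 tested neutrophil and cytokine genes edgeR called 0 (3 at an unadjusted p under 0.05, 2 by DESeq2 and 5 by limma-voom), and among them *Tnf* stood at 8.53, 1.83 and 5.32 CPM in WT and 0.246, 0.666 and 1.13 CPM in *Cldn2*KO (edgeR adjusted p 0.187).

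Several of the largest falls were of genes outside the lists described so far. *Plet1* (ENSMUSG00000032068, chr9:50494525-50505482, plus strand), a surface protein of progenitor and repairing epithelium, stood at 82.8, 138 and 52.5 CPM in WT and at 1.08, 0.943 and 0.484 CPM in *Cldn2*KO (log2 fold change -6.75 ± 1.04, edgeR adjusted p 0.00578). The antisense transcript *Plet1os* had 152 reads over the WT libraries and 1 over the *Cldn2*KO libraries, a ratio of 147 with an exact counting interval of 25.9 to 5832. The genes overlap on opposite strands, so reads of either could have been counted for the other. *Plet1* was the single call among 16 genes of fetal-like repair epithelium.

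*Apol10a*, an apolipoprotein L gene of unsettled function in the gut, stood at 77.3, 369 and 77.6 CPM in WT and at 2.12, 2.27 and 4.14 CPM in *Cldn2*KO (log2 fold change -5.94 ± 0.68, edgeR adjusted p 0.000755), and at -4.79 without the high WT replicate 2. The related *Apol7a* fell by 1.91 and *Apol9a*, a member of the interferon-γ target list above, by 3.31 on the log2 scale. *Apol9a* was not called without WT replicate 2 (edgeR adjusted p 0.0745), and reads of this family may be shared. *Btnl2*, a butyrophilin-like gene of the class II region, stood at 12.7, 50.4 and 11.4 CPM in WT and at 0.641, 0.832 and 1.35 CPM in *Cldn2*KO (log2 fold change -4.72 ± 0.54, edgeR adjusted p 0.000755), and at -3.70 without WT replicate 2. *Ddah1* (ENSMUSG00000028194, chr3:145758675-145894277, plus strand), which degrades an endogenous inhibitor of nitric oxide synthase, had the smallest adjusted p after *Cldn2*. It stood at 71.2, 52.7 and 72.5 CPM in WT and at 15.9, 10.2 and 14.9 CPM in *Cldn2*KO (log2 fold change -2.26 ± 0.22, edgeR adjusted p 0.000162), and kept its call throughout the 16 alternatives. *Ceacam12* (-4.95), of the carcinoembryonic antigen family, and *Slc51b* (-2.31), a subunit of the basolateral bile acid exporter, also fell, and were at -4.25 and -1.48 without WT replicate 2. *Retnlb*, an antimicrobial goblet cell protein, was called with a log2 fold change of -6.61, but stood at 7.79, 215 and 18.1 CPM in WT and was not called without WT replicate 2. The same held for *Btnl7-ps* and for *Galnt12*, a mucin glycosyltransferase.

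The 21 genes that rose changed by less. *Per2* (ENSMUSG00000055866, chr1:91415982-91459324, minus strand), a repressor of the circadian clock, had the smallest adjusted p among them. It stood at 35.9, 42.6 and 49.1 CPM in WT and at 118, 130.0 and 99.6 CPM in *Cldn2*KO (log2 fold change 1.45 ± 0.20, edgeR adjusted p 0.00274), and every *Cldn2*KO library was well above every WT library. Of 18 clock genes tested edgeR called *Per2* alone, DESeq2 called 2, limma-voom 8, and 7 had an unadjusted p under 0.05, with a list median of 0.33 (0.55 without WT replicate 2). *Per3* was at 38.8, 54.7 and 31.1 CPM in WT and 84.8, 104 and 67.1 CPM in *Cldn2*KO (edgeR adjusted p 0.208). *Dbp*, a clock output gene, was at 27.2, 40.3 and 18.4 CPM in WT and 68.6, 86.4 and 68.9 CPM in *Cldn2*KO (edgeR adjusted p 0.356). The groups did not overlap for either, while *Arntl*, the activator of the loop, had a log2 fold change of -0.06. The times of day at which tissue was taken were not given in the sources used here.

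The linker histone gene *Hist1h1c* rose from 261, 172 and 184 CPM to 445, 533 and 479 CPM (log2 fold change 1.24 ± 0.23, edgeR adjusted p 0.0145). *Hist1h4h*, a core histone gene with near-identical copies and therefore uncertain, rose by 2.25. *Klb*, the co-receptor for FGF15 and FGF21, stood at 3.74, 0.393 and 3.45 CPM in WT and at 18.8, 21.1 and 15.3 CPM in *Cldn2*KO (log2 fold change 2.84 ± 0.66, edgeR adjusted p 0.0484), without overlap, and lost its call when any single library was left out. *Fndc5*, the precursor of irisin, rose by 2.85 (3.73 without WT replicate 2), from 0.708, 2.68 and 0.713 CPM to 10.8, 8.1 and 10 CPM. *Il1rl2*, the receptor for IL-36, rose by 1.74 and *Lefty1*, an inhibitor of Nodal signalling, by 1.48. *Zp2*, an egg coat protein gene, rose by 2.85 from at most 0.393 CPM in WT. Other rises included *Catspere2* (2.02), *Rin3* (1.67), *Pcnx4* (0.99), *Prkab2* (0.91), *Pus7* (0.88), *Map4k5* (0.75) and *Vps36* (0.53). Without WT replicate 2, 18 genes were higher (0.106%), of which 8 were among the 21. These 8 were *Per2*, *Hist1h1c*, *Hist1h4h*, *Fndc5*, *Zp2*, *Rin3*, *Vps36* and the long non-coding RNA *D630011A20Rik*, whereas *Klb*, *Il1rl2*, *Lefty1*, *Catspere2*, *Pcnx4*, *Prkab2*, *Pus7* and *Map4k5* were not called.

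Other programmes had no call by edgeR in spite of differences of one sign. All 16 smooth muscle genes were fitted higher in *Cldn2*KO, with a list median of 0.90, and for 15 of them the groups did not overlap (11.6% of all tested genes). *Actg2*, enteric smooth muscle actin, stood at 521, 373 and 329 CPM in WT and at 940.0, 892 and 1242 CPM in *Cldn2*KO (log2 fold change 1.33 ± 0.62, edgeR adjusted p 0.376). A higher share of muscle RNA in the *Cldn2*KO libraries moves with the falls described above, and its part in them was not tested. All 24 mitosis genes were fitted lower (median -0.80, and -1.12 without WT replicate 2). The groups were apart for 2 of them, where 10.7% of all tested genes were apart towards lower levels. An unadjusted p under 0.05 was likewise reached by 2. DESeq2 called 0 of the 24 and limma-voom 18. *Mki67* stood at 411, 152 and 284 CPM in WT and at 193, 163 and 190.2 CPM in *Cldn2*KO (edgeR adjusted p 0.623). Lists of Wnt and stem cell genes, p53 targets, DNA replication, ion and water transport, enteric neurons and glia and colonic identity had 0 called by edgeR, with 0 to 4 members each at an unadjusted p under 0.05, 0 or 1 called by DESeq2 and 0 to 5 by limma-voom. Their medians lay between -0.10 and 0.18, and those of the Wnt and DNA replication lists turned from 0.13 and 0.14 to -0.12 and -0.13 without WT replicate 2. *Lgr5*, a marker of crypt stem cells, was at 6.53, 3.54 and 7.9 CPM in WT and 6.9, 5.94 and 7.37 CPM in *Cldn2*KO, and *Muc2*, the secreted gel-forming mucin, had a log2 fold change of -0.31 ± 0.31.

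WT replicate 2 decided a further set of genes. Without it, 198 genes were called, 58 of the 199 were lost and 57 were gained, 10 of these higher and 47 lower. All 199 genes kept their sign. *Cyp2c55*, a cytochrome P450 of the colon, shows the effect of this library most plainly. It stood at 22.3, 8594 and 22.6 CPM in WT and at 760.3, 920.2 and 803 CPM in *Cldn2*KO, so that *Cldn2*KO lay above 2 WT libraries and below the third. With all libraries its log2 fold change was -1.80, and without WT replicate 2 it was 5.18 and the gene was called. *Slc30a10*, a manganese exporter, stood at 2.04, 235 and 2.14 CPM in WT and at 42.7, 27.3 and 29.7 CPM in *Cldn2*KO and turned from -1.26 to 3.97. *Mal* turned from -3.96 to 2.48 and *Clec2e* from -1.87 to 3.06. Of genes called lower without it, *Adgrf1* stood at 77.3, 0.196 and 65.5 CPM in WT and at 3.8, 6.27 and 3.23 CPM in *Cldn2*KO, and *Slpi*, a protease inhibitor of mucosal surfaces, at 191, 6.55 and 159 CPM in WT and 6.95, 20.1 and 17.3 CPM in *Cldn2*KO. *Ly6c1* and *Cd177* had the same pattern, at 236 and 229 CPM, and 343 and 279 CPM, in WT replicates 1 and 3.

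**Figure D4:**
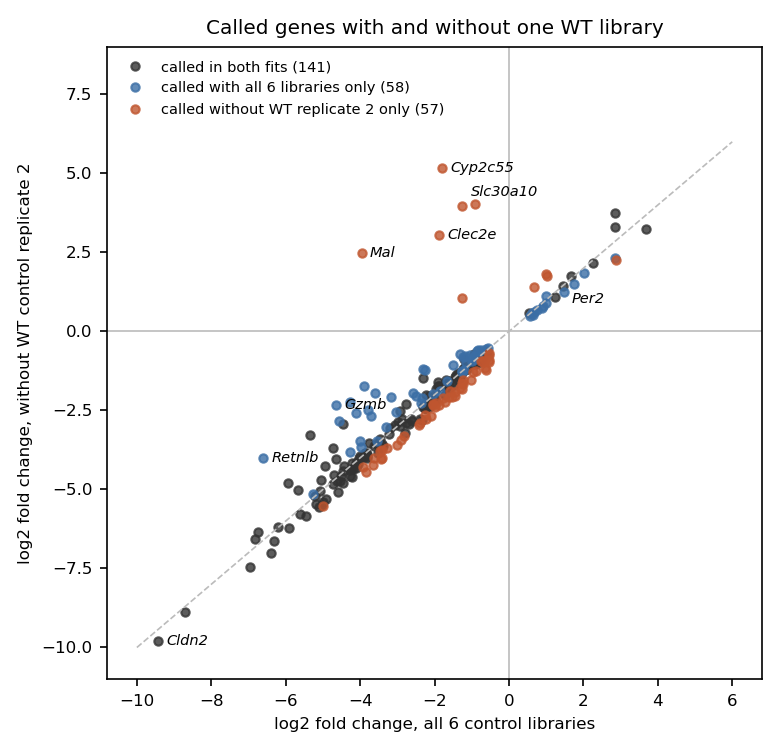
Log2 fold change of each gene called with all 6 control libraries, without WT replicate 2, or with both, where the x axis uses all 6 and the y axis leaves the library out. The 141 genes called both ways lie off the diagonal by a median of 0.14 and by over 1 for 4 of them, whereas *Cyp2c55*, *Slc30a10*, *Clec2e* and *Mal* lie in the opposite quadrant.

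Of the 141 genes called both ways in the plot with and without this library, the 4 that moved by over 1 on the log2 scale were *Ccl5*, *Cd7*, *Apol10a* and *Btnl2*. For *H2-Aa* the log2 fold change was -4.09 with and -4.12 without WT replicate 2, for *Ifi47* -4.01 and -3.96, and for *Igha* -3.91 and -3.98.

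Genotype was also compared within the challenged groups, which share no library with the controls. In recovery 165 genes (0.974%) and in AOM/DSS 1 gene (0.0059%), *Cldn2*, were called. Of the 198 genes called in controls besides *Cldn2*, 158 had the same sign in recovery and 155 in AOM/DSS, where 46.7% and 50.9% of all tested genes did. For the genes that fell in controls the median log2 fold change was -2.68 there, -1.09 after recovery and -0.43 after AOM/DSS. Those genes were picked by their control effect, which by itself favours a larger median in controls, so these medians do not rank the treatments. In recovery, 30 of the 198 were called with the same sign, which is 15.2% of the control calls and 18.3% of the recovery calls. The class II list held 7 calls towards lower levels in recovery, with *H2-Aa* at 265, 588 and 428 CPM in WT and at 9.64, 8.44 and 13.8 CPM in *Cldn2*KO. In AOM/DSS *H2-Aa* was at 213, 101 and 129 CPM in WT and at 78, 70.5 and 54.7 CPM in *Cldn2*KO, and was not called.

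A test of the difference between differences found 22 genes (0.13%) whose genotype effect in controls differed from that in recovery, and 2 (0.0118%) for AOM/DSS. *Duox2*, which fell in untreated *Cldn2*KO, had a log2 fold change of the other sign in recovery, 1.45. It stood at 116, 85.7 and 63.5 CPM in WT and at 98.1, 342 and 286 CPM in *Cldn2*KO, with overlap, and the difference from its control effect was -3.65 ± 0.60 (edgeR adjusted p 0.0361). *Ddah1*, which fell in untreated *Cldn2*KO, stood at 135, 99.3 and 124 CPM in WT and at 85.6, 127 and 125 CPM in *Cldn2*KO after recovery, with overlap, and at 50.7, 61.2 and 58.9 CPM and 63.4, 44.2 and 60.1 CPM in AOM/DSS. Its control effect differed from both (edgeR adjusted p 0.0155 and 0.0198). *Nfkbiz* (-1.70 ± 0.23), *Zc3h12a* (-3.12 ± 0.45), *Btnl2* (-4.44 ± 0.68), *Apol10a* (-5.05 ± 0.82), *Tjp3* (-1.08 ± 0.17) and *Plet1os* (-6.71 ± 1.17) also differed between controls and recovery, all with the more negative effect in controls. The recovery libraries had at most 0.502 CPM of *Hoxb13*, as WT replicate 2 did, so treatment and the low level of this distal gene cannot be told apart in this comparison. The sexes also differed. *Xist*, at most 1.1 CPM in the controls, was at 865 and 1742 CPM in WT replicates 2 and 3 and at 1449.6 and 1391 CPM in *Cldn2*KO replicates 2 and 3 of recovery. In AOM/DSS it was at 1649 and 1594 CPM in *Cldn2*KO replicates 2 and 3 and at most 1.16 CPM in WT. The part of sex in the comparisons with recovery and AOM/DSS was not tested. The 22 calls rested on single control libraries. edgeR called 0 without *Cldn2*KO replicate 1 (2674 genes at an unadjusted p under 0.05) and 0 without *Cldn2*KO replicate 2 (2585 genes), and 5 without *Cldn2*KO replicate 3 or WT replicate 1, while with all libraries DESeq2 called 931 and limma-voom 1754.

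**Figure D5:**
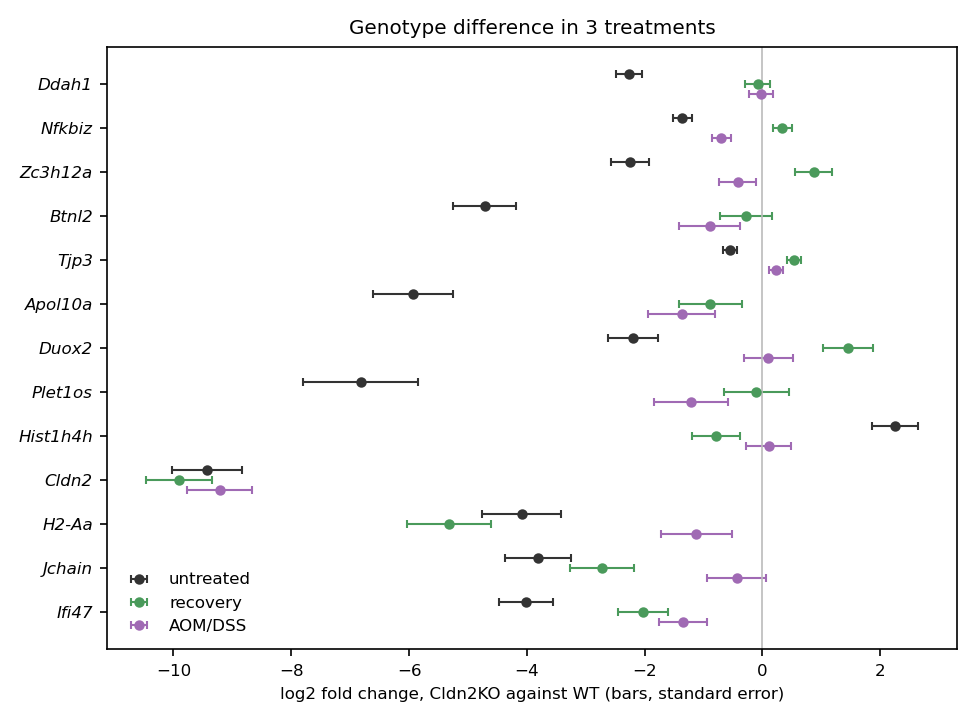
Log2 fold change of *Cldn2*KO against WT for 13 genes in untreated, recovery and AOM/DSS colon, with the standard error of the fit as bars. The 9 genes from *Ddah1* to *Hist1h4h* differed between controls and recovery, whereas *Cldn2* lay between -9.91 and -9.21 in all 3 treatments and *H2-Aa*, *Jchain* and *Ifi47* were below 0 in each.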

How the data were processed

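Colon RNA was sequenced in 18 libraries on 2 lanes each. The deposited values are raw read counts per gene and lane, which the authors made with featureCounts (Subread) on GRCm38. The submitters' processing notes name HISAT2 as the aligner and the study's methods TopHat2, and versions and strandedness were not given in the sources used here. Lanes were summed. Gene symbols came from GENCODE M21 (47310 of 47729 identifiers matched).

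Genes that passed filterByExpr in edgeR 4.0.16 (R 4.3.3) numbered 16937. Counts were scaled by TMM and fitted by the robust quasi-likelihood test in 1 model with a mean for each of the 6 groups, so all 18 libraries shared the estimate of spread. Genes with an adjusted p (Benjamini-Hochberg) under 0.05 were called. Alternatives used DESeq2 1.42.0, limma 3.58.1 (voom with sample weights), other scaling and filters, 1 lane, only the 6 control libraries, a replicate block, and each control library left out. The fit was tested on simulated data. Lanes of 1 library differed little beyond counting noise (1.06 to 1.13, as chi-square over its degrees of freedom) and the closest replicates by far more (8.15), so no library was a repeat of another.

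Members and lists were chosen with earlier results of these data known. Named genes were *Cldn2*, the 15 largest changes in each direction among called genes of at least 1 CPM without overlap, up to 6 called genes per list or the 2 with the smallest p, 10 in each direction called with and without WT replicate 2 or only without it, defining markers, and the genes that differed most between treatments. *Cd28* and other list members given beside these were chosen after their values were seen. Intervals on read ratios (95%) and the floor of 3 reads cover counting error only.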

Additional observations from a re-analysis of the deposited data

Results flagged for a closer look

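The genotype difference in untreated colon differed from that in recovery for 22 genes and from that in AOM/DSS for 2 genes, by a test of the difference between the differences (edgeR, adjusted p under 0.05). The values below are the log2 fold change of *Cldn2*KO against WT in controls minus the same in the challenged group. Against recovery *Ddah1* differed by -2.18, *Nfkbiz* by -1.70, *Zc3h12a* by -3.12, *Btnl2* by -4.44, *Tjp3* by -1.08, *Apol10a* by -5.05, *Duox2* by -3.65 and *Plet1os* by -6.71. *Hist1h4h*, which rose in untreated *Cldn2*KO, differed by 3.04. Against AOM/DSS *Ddah1* differed by -2.24, and the other gene was the antibody segment *Ighv5-16*. Controls and challenged groups share no library.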

How the results depend on the processing

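None of the 80 called genes among 99 named genes changed sign under any of the 16 alternatives, and they lost 386 of 1279 calls. The 199 calls became 688 under DESeq2, 2526 under limma-voom, 113 with the 6 control libraries alone, and 25 to 307 when 1 library was left out. The 21 higher genes became 104, 1029, 12 and 1 to 18 in the same order, and 12 with no filter. The 178 lower genes became 584, 1497, 101 and 23 to 289. The 22 genes that differed from recovery became 931 under DESeq2, 1754 under limma-voom, 12 under upper-quartile scaling and 0 to 23 with 1 library left out, and the 2 that differed from AOM/DSS became 87, 288, 4 with no filter and 0 to 11.

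Replicate numbers were shared by the genotypes. Deviations of same-numbered libraries correlated at 0.157, 0.0023 and 0.0794, and those of differently numbered libraries at -0.168 to 0.0803. So few pairs cannot show whether same-numbered libraries were paired, and the labels do not say. With a replicate block 179 genes were called (18 higher, 161 lower), 7 genes differed from recovery and 1 from AOM/DSS. With the replicate block in the 6 control libraries alone 23 were called, 0 higher and 23 lower.

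The genes that turned sign were ones that WT replicate 2 held up. With 1 library left out *Cyp2c55* ranged from -2.38 to 5.18, *Mal* from -4.54 to 2.48, *Clec2e* from -2.44 to 3.06, *Slc30a10* from -1.83 to 3.97 and *Nceh1* from -1.74 to 1.05. Under limma-voom these were 4.87, 2.07, 2.92, 3.86 and 1.01. With the replicate block *Cyp2c55* was at 3.55, *Mal* at 0.60, *Clec2e* at 1.14 and *Slc30a10* at 2.32, and with the replicate block in the control libraries alone at 3.54, 0.65, 1.16 and 2.30. Of 704 list medians, 636 moved by less than the spread and 68 by more.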

Other observations

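Genes of fat oxidation and ketone formation were fitted lower in 19 of 20 cases in *Cldn2*KO, with a list median log2 fold change of -0.69, but this rested on WT replicate 2. Their summed level was 2114, 8386 and 1942 CPM in WT and 2026, 2115 and 1909 CPM in *Cldn2*KO, and without that library the median was -0.04, with 12 fitted lower and 8 higher. *Acadl*, which encodes an acyl-CoA dehydrogenase of mitochondria, was the single edgeR call, kept without WT replicate 2 and lost without any 1 of the other 5 control libraries. It stood at 259, 220.0 and 225 CPM in WT and at 168, 152 and 152 CPM in *Cldn2*KO, without overlap (log2 fold change -0.58 ± 0.13, edgeR adjusted p 0.0346). Of 22 antimicrobial genes 18 were fitted lower, but single genes were high in WT replicate 2 alone. *Reg3g*, a lectin that binds bacteria, stood at 1.14, 648 and 6.58 CPM in WT and at 1.33, 0.721 and 0.431 CPM in *Cldn2*KO and was not called.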
